A study of Rattus norvegicus with 47 samples.

Results

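Klrd1 and Ctsw are a pair of genes used as marks of cytotoxic lymphocytes, and their blood levels were followed across 6 groups of rats. The members were found by their symbol in the platform annotation, which gave 1 probe each (ILMN_1357215 for Klrd1 and ILMN_1359033 for Ctsw), so the pair makes up 2 of 13337 gene symbols on the array. Both probes passed the detection filter, with 6673 symbols in all. The genes were chosen by their measured differences between these groups, in a contrast that the selection does not name. Their differences are therefore given as a description with an error and without a p-value.

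Cytotoxic lymphocytes are natural killer (NK) cells and CD8+ T cells, which kill infected or altered cells by releasing granules that hold perforin and granzymes. Klrd1 encodes CD94, a surface receptor of NK cells and of some CD8+ T cells. CD94 pairs with NKG2 proteins of the Klrc genes and reads some MHC class I molecules on other cells. The outcome is inhibiting or activating, depending on the partner. Ctsw encodes cathepsin W, a cysteine protease of the papain family that in human blood is made mainly by NK cells and CD8+ T cells. Both genes are widely used as marks of these cells in blood.

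The animals were adult Sprague Dawley rats of no stated genotype, and whole blood was taken from each into tubes that lyse the cells and fix the RNA. Exposed rats had met the scent of a predator, and the submitters classed them by behaviour as showing an extreme or a minimal response. Control rats were not exposed and went through the same behavioural tests. The female groups were extreme response, minimal response and control (8, 8 and 6 rats). The male groups were extreme response, minimal response and control (8 rats each). Each Illumina array was taken as 1 rat, though some rat numbers in the sample titles recur between male groups. Sex was taken from each sample's gender label. The submitters' design text calls the rats female and also counts males, and the labels were not checked here against Y-linked genes. Rats labelled female and male were numbered in separate series, so sex cannot be told apart from any other difference between these sets of rats. The time between exposure and blood collection is not given in the sources used here. Whole blood mixes cell types, so fewer cells of a type and less RNA per cell cannot be told apart.

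Of 47 arrays, 1 (female control replicate 2) had no usable signal, with a highest intensity of 83.2, and was left out. On the other 46 arrays 5921 to 8770 of 22523 probes were detected (detection p below 0.05). A further 4 female control arrays, replicates 1, 3, 4 and 5, stood apart. Their platelet marker scores were −2.45 to −1.12, against 0.21 and 0.37 in female control replicates 6 and 7, and their immediate early gene scores were 0.85 to 1.15, against 0.01 and 0.04. A score is the mean log2 level of a marker list after each gene was centred over the arrays. The differences of exposed from control females in the pair and in the genes named, and the counts of calls on the cytotoxic lists, are also given without these 4 arrays.

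Klrd1 was lower in exposed than in control females. In males the groups overlapped, with 7 of 16 exposed rats above the highest control. In normalized log2 intensity, Klrd1 ran from 4.84 to 5.74 (median 5.17) in extreme response females. In minimal response females it ran from 5.20 to 5.91 (median 5.40). The 6 control females had 6.74, 6.30, 6.33, 6.71, 5.57 and 5.92 (replicates 1, 3, 4, 5, 6 and 7). Every exposed female lay below the control mean, and 13 of 16 lay below the lowest control, replicate 6, so the groups overlapped through the lower end of the controls. The upper 4 control values were those of replicates 1, 3, 4 and 5.

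In extreme response males Klrd1 ran from 4.55 to 5.64 (median 5.06). In minimal response males it ran from 4.92 to 5.88 (median 5.29). Control males ran from 4.33 to 5.23 (median 4.97), all below every control female. The Klrd1 probe was dim, and it was detected on 5 of 8 extreme response, 8 of 8 minimal response and 6 of 6 control arrays of females. In males it was detected on 5 of 8 extreme response, 7 of 8 minimal response and 4 of 8 control arrays.

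Ctsw ran the other way in females, with higher levels in exposed than in control rats. It ran from 9.01 to 9.66 (median 9.45) in extreme response females. In minimal response females it ran from 8.94 to 9.75 (median 9.27). The control females had 8.24, 8.90, 8.36, 9.27, 9.22 and 9.27 in the same order of replicates. All 16 exposed females lay above the control mean and 10 of 16 above the highest control, and the 3 lowest controls were replicates 1, 4 and 3. Control replicates 5, 6 and 7 lay inside the range of the exposed rats.

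Ctsw in males ran from 8.62 to 9.56 (median 9.13) in extreme response, from 8.84 to 9.57 (median 9.17) in minimal response and from 8.79 to 9.55 (median 9.27) in control rats. These ranges overlapped almost wholly. The Ctsw probe was detected on all 46 arrays.

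**Figure D1:**
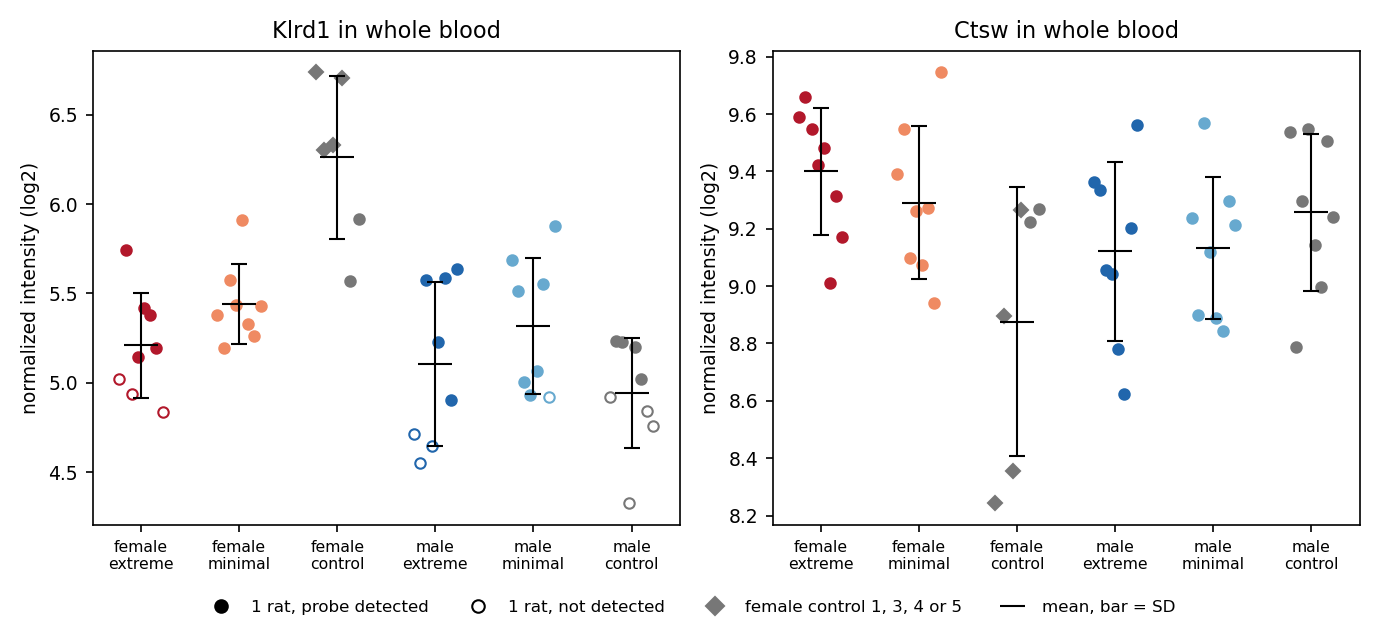
Normalized log2 intensity of Klrd1 (left) and Ctsw (right) in each rat of the 6 groups, with filled points where the probe was detected, open points where it was not, diamonds for female control replicates 1, 3, 4 and 5, and bars for the mean and SD. Klrd1 is highest in control females (6.26 ± 0.45) and Ctsw lowest in them (8.88 ± 0.47), and both groups of points overlap those of exposed females.

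The order of the group means for Klrd1, from high to low, was control females (6.26 ± 0.45, SD, n = 6), minimal response females (5.44 ± 0.22, n = 8), minimal response males (5.32 ± 0.38, n = 8), extreme response females (5.21 ± 0.29, n = 8), extreme response males (5.10 ± 0.46, n = 8) and control males (4.94 ± 0.31, n = 8). Control females stood above the next group by more than either SD. No other neighbouring groups in this order differed by more than their SDs. For Ctsw the order was extreme response females (9.40 ± 0.22, SD, n = 8), minimal response females (9.29 ± 0.27, n = 8), control males (9.26 ± 0.27, n = 8), minimal response males (9.13 ± 0.25, n = 8), extreme response males (9.12 ± 0.31, n = 8) and control females (8.88 ± 0.47, n = 6). No neighbouring groups in the Ctsw order differed by more than their SDs.

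Exposed females, taken as the mean of both response groups, had a Klrd1 mean of 5.32 against 6.26 in control females, a log2 difference of −0.94 ± 0.17 (SE of the limma fit, n = 16 and 6), or 1.91-fold lower. The difference from control was −1.05 ± 0.19 in extreme response females and −0.82 ± 0.19 in minimal response females. These comparisons share the 6 control arrays. Extreme minus minimal response females gave −0.23 ± 0.17, close to the SD within either group. For Ctsw, exposed minus control females gave 0.47 ± 0.14, or 1.38-fold higher (means of 9.35 and 8.88). The difference was 0.52 ± 0.16 in extreme response and 0.42 ± 0.16 in minimal response females, against the same controls. Extreme minus minimal response females gave 0.11 ± 0.15.

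In males Klrd1 differed between exposed and control rats by 0.27 ± 0.15 (10 of 16 exposed rats above the control mean), with 0.16 ± 0.17 in extreme and 0.38 ± 0.17 in minimal response males. Ctsw differed by −0.13 ± 0.13, with −0.14 ± 0.15 and −0.12 ± 0.15 in the extreme and minimal response males. Extreme minus minimal response males gave −0.21 ± 0.17 for Klrd1 and −0.01 ± 0.15 for Ctsw. The female minus male difference of the exposure effect was −1.21 ± 0.23 for Klrd1 and 0.60 ± 0.19 for Ctsw. Without female control replicates 1, 3, 4 and 5 it was −0.69 ± 0.29 for Klrd1 and 0.23 ± 0.23 for Ctsw. The same quantity for extreme minus minimal response was −0.02 ± 0.25 for Klrd1 and 0.12 ± 0.21 for Ctsw, smaller than its error.

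**Figure D2:**
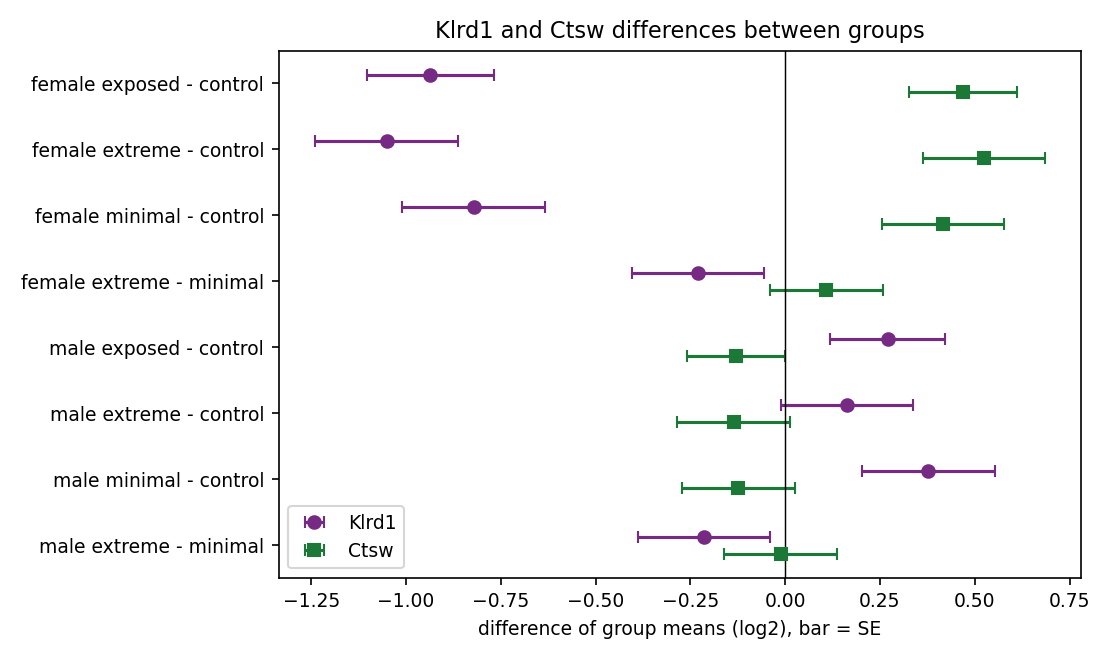
Differences of group means in log2 units for Klrd1 (circles) and Ctsw (squares) in the 4 female and 4 male comparisons, with bars for the SE. In females Klrd1 lies at −0.94 and Ctsw at 0.47 for exposed minus control, while the male values for the same comparison are 0.27 and −0.13.

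At an adjusted p below 0.05 in limma, exposed minus control females held 1 of the pair as higher (Ctsw) and 1 as lower (Klrd1), beside 4.27% of all 9416 tested probes higher and 2.09% lower. In extreme response females 1 was higher and 1 lower, beside 3.28% and 2.08% of probes. In minimal response females 0 were higher and 1 was lower, beside 3.96% and 1.23%. These contrasts are among those that may have chosen the genes, so nothing is read from these counts. Neither gene was called in the other comparisons of 2 groups, where the shares of probes called higher and lower were 0.117% and 0.223% for extreme minus minimal response females, 6.23% and 4.97% for exposed males, 0% and 0% for extreme response males, 8.11% and 6.71% for minimal response males and 0.106% and 0.0319% for extreme minus minimal response males.

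The size of both female differences moved with how the intensities were put on a common scale. Raw Klrd1 intensities, before any correction, ran from 89.1 to 157.6 (median 115.9) in extreme response, from 108.8 to 149.7 (median 130.1) in minimal response and from 101.5 to 153.1 (median 126.1) in control females, so the raw values of these 3 groups overlapped almost wholly. Control females had the dimmest arrays, with a median log2 95th percentile of raw intensity of 8.73 in extreme response, 9.21 in minimal response and 8.36 in control females. Divided by the median intensity of its own array, Klrd1 averaged 1.16 ± 0.09 in extreme response, 1.29 ± 0.10 in minimal response and 1.37 ± 0.09 in control females (SD).

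On the log2 scale, exposed minus control females gave −0.03 ± 0.14 for Klrd1 from raw intensities and −0.16 ± 0.07 from intensities over the array median. It gave −0.38 ± 0.07 in the log2 table the authors deposited, which holds no background correction, and −0.65 ± 0.15 with scaling to the 75th percentile in place of quantile normalization. Raw intensities shifted the median of all tested probes by 0.25 in this comparison, and values over the array median by 0.12. Klrd1 was below that median shift under each of these scales.

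Raw Ctsw intensities ran from 422.6 to 1310.5 (median 676.5) in extreme response, from 334.6 to 1190.1 (median 944) in minimal response and from 206.7 to 720.9 (median 356.9) in control females. The lower end of these ranges was held by control females. Exposed minus control females gave 1.04 ± 0.32 for Ctsw from raw intensities, 0.91 ± 0.26 over the array median, 0.40 ± 0.12 in the deposited log2 table and 0.86 ± 0.22 with scaling to the 75th percentile. Ctsw was above the median shift of all probes in each. With brightness as a covariate the differences were −0.90 ± 0.18 for Klrd1 and 0.43 ± 0.15 for Ctsw. The part of array brightness in either difference was not tested.

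Both female differences were smaller without control replicates 1, 3, 4 and 5. With 2 controls left, Klrd1 gave −0.42 ± 0.25 and Ctsw 0.10 ± 0.20 for exposed minus control. The Ctsw difference was within its error, and that of Klrd1 exceeded its error by less than the error itself. With the scores of T cell, B cell, neutrophil, monocyte, platelet and erythroid markers as covariates, Klrd1 gave −0.38 ± 0.25 and Ctsw turned to −0.05 ± 0.18. Platelet marker scores moved with the same comparison. They ran from −0.04 to 0.33 in extreme response, from 0.20 to 0.92 in minimal response and from −2.45 to 0.37 in control females. In limma 6 of 7 tested platelet markers were called higher in exposed females (median difference 1.74), beside 4.27% of all probes. Without the 4 control arrays 0 of 7 were called (median difference 0.04), beside 0.0106% of all probes. The part of the platelet share of RNA in the pair's differences was not tested.

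**Figure D3:**
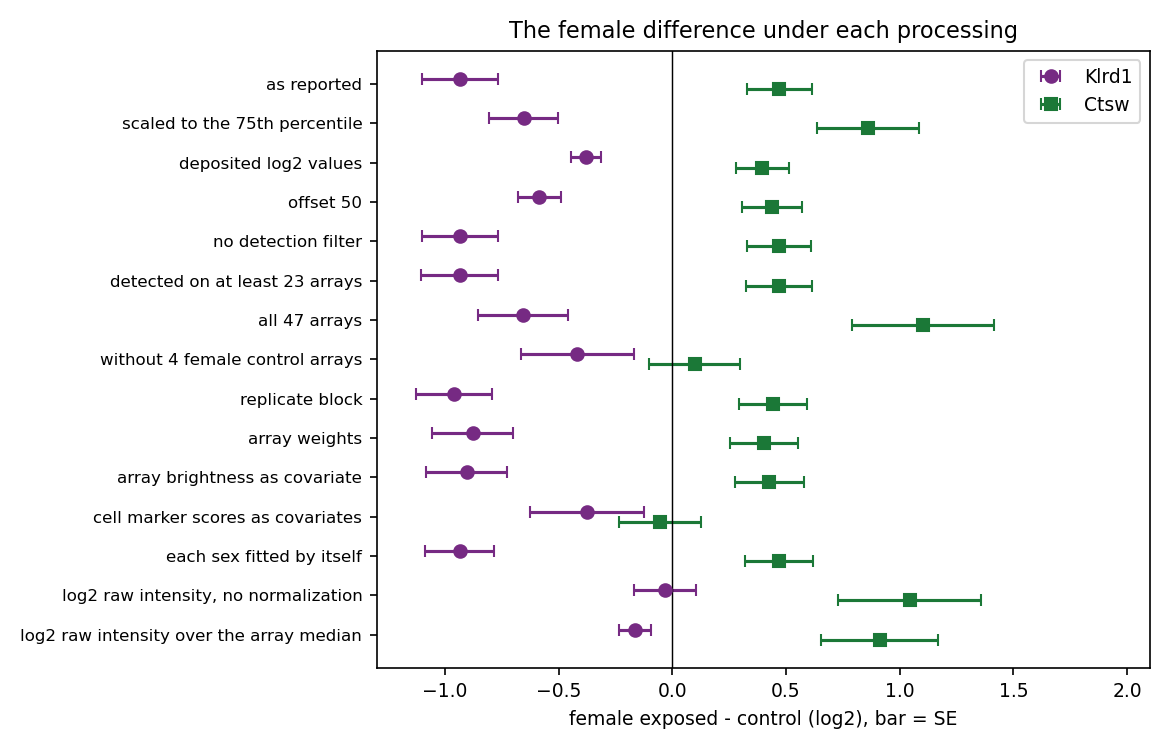
Exposed minus control females in log2 units for Klrd1 (circles) and Ctsw (squares) under the reported processing and each alternative, with bars for the SE. Klrd1 lies between −0.96 and −0.03 and Ctsw between −0.05 and 1.10, with the smallest Ctsw values where 4 control arrays or the cell marker scores are taken out.

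Of 43 other genes on the killer cell receptor list 27 were on the array and 10 were tested. In limma 0 of 10 passed in each of the 8 comparisons of 2 groups. Of all probes, 4.27% were called higher and 2.09% lower in exposed females, and 6.23% and 4.97% in exposed males. A count of 0 of 10 is close to these shares, so it does not set Klrd1 apart from the list. At an unadjusted p below 0.05 the count was 2 of 10 in exposed minus control females and 0 of 10 in exposed minus control males, beside 19.1% and 25.3% of all tested probes. Their median difference was 0.004 in exposed females and 0.12 in exposed males, beside −0.01 for all tested probes in both. The female median was −0.06 without the 4 control arrays. In the RefSeq gene order of assembly GRCr8, Klrd1 lies on chromosome 4 between Klre1 and Klrk1, and 30 of 41 genes of the list found there are on that chromosome.

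Klre1, which encodes another lectin-like NK receptor, differed by −0.24 ± 0.16 in exposed minus control females and by 0.26 ± 0.14 in males, and neither passed (limma, adjusted p = 0.414 and 0.252). Klrk1, which encodes the activating receptor NKG2D, differed by −0.08 ± 0.11 in exposed males (adjusted p = 0.739), and its difference in exposed females was under 0.01. Klrb1a, of the NKR-P1 receptor family, differed by −0.28 ± 0.19 in exposed females (adjusted p = 0.429). Cd96 and Cd226, receptors of NK and T cells for the same class of ligands, differed by 0.50 ± 0.21 and 0.37 ± 0.14 in exposed females, and neither passed (adjusted p = 0.155 and 0.117). Without the 4 control arrays the female differences were −0.15 for Klre1, 0.09 for Klrk1, −0.16 for Klrb1a, 0.23 for Cd96 and 0.08 for Cd226, and none passed. Among the genes of CD94 partners, Klrc2 and Klrc3 were detected on 1 and 0 arrays and were not tested, and Klrc1 had no named probe. The NK receptor genes Ncr1 and Klrg1 were detected on 6 and 3 arrays and were not tested either.

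Of the genes of the cytotoxic granule and its release, 13 were tested beside Ctsw. In exposed females 1 rose and 0 fell, and in exposed males 1 rose and 1 fell, beside 4.27% of all probes higher and 2.09% lower in exposed females and 6.23% and 4.97% in exposed males. The median difference was 0.14 in exposed females and 0.07 in exposed males, beside −0.01 for all tested probes. The genes of the killing proteins did not pass in any comparison. Prf1, which encodes perforin, differed by −0.02 ± 0.13 in exposed females (adjusted p = 0.961) and by 0.07 ± 0.12 in exposed males (adjusted p = 0.792). Its levels were 10.40 ± 0.29 in extreme response, 10.28 ± 0.25 in minimal response and 10.36 ± 0.19 in control females, so the groups lay on top of each other.

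Gzmb, which encodes granzyme B, differed by 0.17 ± 0.15 in exposed females and by −0.06 ± 0.13 in exposed males (adjusted p = 0.556 and 0.845). Nkg7, a granule membrane protein gene, differed by 0.50 ± 0.29 and 0.31 ± 0.26 (adjusted p = 0.349 and 0.504). The female differences were 0.05 for Prf1, 0.17 for Gzmb and 0.74 for Nkg7 without the 4 control arrays, and none passed. Stx11, whose syntaxin takes part in granule release and is also used by platelets, rose by 0.91 ± 0.19 in exposed females (adjusted p = 0.00131) and differed by 0.10 without the 4 control arrays (adjusted p = 0.994). In exposed males Ctsc, whose protease activates granzymes, rose by 0.51 ± 0.14 (adjusted p = 0.0125). Unc13d, which primes granules for release, fell by 0.46 ± 0.13 in exposed males (adjusted p = 0.0182). Rab27a, a small GTPase of granule docking, rose by 0.63 ± 0.18 in minimal response males (adjusted p = 0.0122). With scaling to the 75th percentile the adjusted p was 0.124 for Ctsc, 0.187 for Unc13d and 0.0592 for Rab27a, so these 3 calls were lost, and they were lost with cell marker scores as covariates too.

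**Figure D4:**
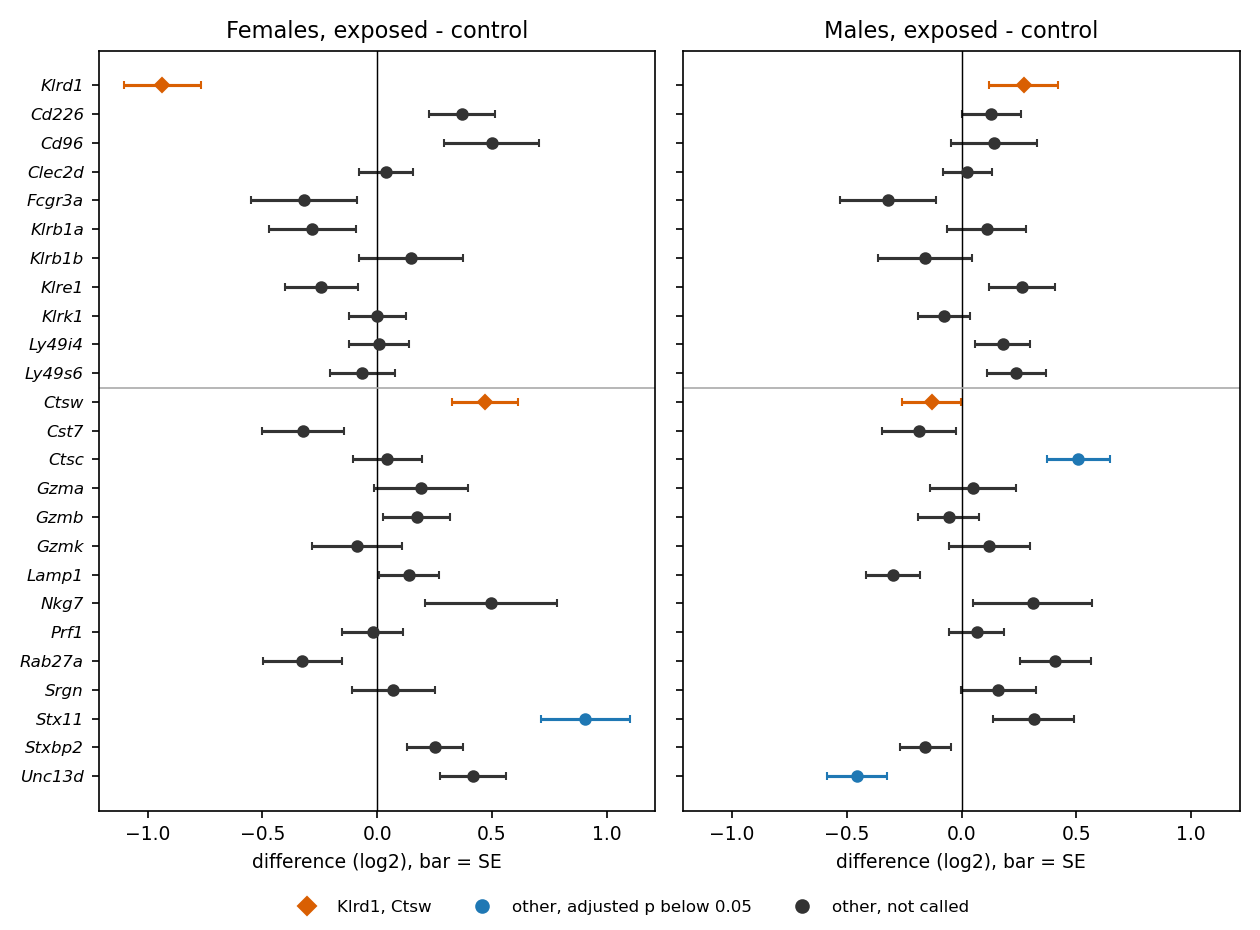
Exposed minus control differences in log2 units in females (left) and males (right) for Klrd1 with 10 other killer cell receptor genes (above the line) and Ctsw with 13 other granule genes (below it), with bars for the SE. In females Klrd1 at −0.94 has the lowest value plotted, and among the other genes Stx11 (0.91) passed. In males Ctsc (0.51) and Unc13d (−0.46) passed.

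Of 17 tested adaptors and kinases that carry killer cell receptor signals, 3 rose and 0 fell in exposed females, and 1 rose and 2 fell in exposed males, beside the same shares of all probes as for the granule genes. Prkcq, the protein kinase C theta gene of T cells and platelets, rose by 1.00 ± 0.14 in exposed females (limma, adjusted p = 3.98e-06). Sh2d2a, a T cell adaptor gene, rose by 0.68 ± 0.16 (adjusted p = 0.00273). Fcer1g, whose signalling chain serves Fc receptors and the platelet collagen receptor, rose by 0.56 ± 0.15 (adjusted p = 0.00981). Without the 4 control arrays these values were 0.26, 0.45 and −0.16, and none passed. In exposed males Lcp2, an adaptor downstream of antigen receptors, rose by 0.44 ± 0.14 (adjusted p = 0.0295, lost without any one of 6 male arrays), while the kinase gene Syk fell by 0.56 ± 0.13 (adjusted p = 0.00555). Tyrobp, the adaptor of several activating NK receptors, fell by 0.40 ± 0.13 in exposed males (adjusted p = 0.0448), a call lost without any one of 16 of the 24 male arrays. With scaling to the 75th percentile the adjusted p was 0.222 for Lcp2, 0.118 for Syk and 0.318 for Tyrobp, and with cell marker scores as covariates it was 0.122, 0.117 and 0.0993, so all 3 calls were lost in both.

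Of 10 tested genes of lineage regulators, cytokines and receptors of cell traffic, 2 rose and 1 fell in exposed females, and 2 rose and 0 fell in exposed males, beside those same shares. Id2, a transcription regulator that NK cells need to develop, had levels of 8.72 ± 0.30 in extreme response, 8.72 ± 0.11 in minimal response and 9.67 ± 0.59 in control females. It fell by 0.95 ± 0.23 in exposed females (adjusted p = 0.00479) and differed by −0.26 without the 4 control arrays (adjusted p = 0.994). In males Id2 had levels of 8.74 ± 0.81 in extreme response, 9.19 ± 0.44 in minimal response and 7.98 ± 0.49 in control rats, and it rose by 0.99 ± 0.21 in exposed males (adjusted p = 0.00209). The female minus male difference of the Id2 effect was −1.94 ± 0.31 (adjusted p = 5.36e-05), a contrast in which 5.79% of probes were called higher and 5.6% lower. It was −1.25 without the 4 control arrays and did not pass (adjusted p = 0.263). With scaling to the 75th percentile the female call of Id2 was lost (adjusted p = 0.219) and the male call was kept (adjusted p = 0.0295). Gata3, a T cell and innate lymphoid regulator, rose by 0.85 ± 0.21 in exposed females (adjusted p = 0.00554). Nfil3, a regulator of NK cell development, rose by 0.48 ± 0.14 (adjusted p = 0.0238). Without the 4 control arrays Gata3 differed by 0.50 and Nfil3 by 0.12, and neither passed (adjusted p = 0.994 for both). Ets1, a lymphocyte transcription factor gene, rose by 0.98 ± 0.19 in exposed males (adjusted p = 0.00159). Tbx21, which encodes T-bet, was detected on 0 arrays and was not tested.

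Over these 4 cytotoxic lists together, without the pair, 50 genes were tested. In exposed females 6 rose and 1 fell, in extreme response females 4 rose and 1 fell, and in minimal response females 5 rose and 1 fell. The shares of all probes called higher and lower were 4.27% and 2.09%, 3.28% and 2.08%, and 3.96% and 1.23% in the same order of comparisons. In males the counts were 4 risen and 3 fallen for exposed rats and 6 risen and 2 fallen for minimal response rats, beside 6.23% and 4.97% of all probes and 8.11% and 6.71%. In limma 0 passed for extreme response males and for extreme minus minimal response in either sex. Without female control replicates 1, 3, 4 and 5 the female counts were 0 as well. At an unadjusted p below 0.05 they were then 3 of 50 in exposed, 7 in extreme response and 2 in minimal response females. The shares of all probes were 5.63%, 7.46% and 4.91% in that order. On all 46 arrays, 12 of 50 had an unadjusted p below 0.05 for extreme response males, beside 15.3% of all tested probes. It was 7 for extreme minus minimal response females and 6 for the same comparison of males, beside 12.3% and 12.6%.

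CD94 and its partners read some MHC class I molecules, not all. Among 21 tested genes of class I molecules and of their loading, 0 passed in exposed females. There 1 had an unadjusted p below 0.05, beside 19.1% of all probes. RT1-CE16, a class I molecule gene, was 1.54 ± 0.33 higher in extreme than in minimal response females (limma, adjusted p = 0.0218). It was the 1 gene of these 21 called there, beside 0.117% of all probes called higher. The call was lost without female extreme replicate 4 or minimal replicate 8 and with scaling to the 75th percentile (adjusted p = 0.0678). In exposed males 2 rose, which were Calr, a chaperone gene of class I loading (0.25 ± 0.08, adjusted p = 0.04995), and RT1-M3-1, a class I molecule gene (0.39 ± 0.12, adjusted p = 0.0323). The call of Calr was lost without any one of 16 of the 24 male arrays, and that of RT1-M3-1 without any one of 5. Both were lost with scaling to the 75th percentile. Of all probes, 6.23% were called higher in exposed males. In minimal response males 2 of these 21 genes rose and 1, the class I molecule gene RT1-S3, fell, beside 8.11% and 6.71% of all probes. The RT1-S3 difference ran from −0.58 to −0.39 over the processing settings. Its call was lost without any one of 7 male arrays and with scaling to the 75th percentile (limma, adjusted p = 0.0919). The class I genes are near-identical copies, and their probes may share signal. Among 14 tested cathepsin and cystatin genes beside Ctsw, Cst3, the cystatin C gene, rose by 0.94 ± 0.20 in exposed females, and Cstb, the cystatin B gene, fell by 0.53 ± 0.11 (adjusted p = 0.0013 and 0.00123). Of all probes, 4.27% were called higher and 2.09% lower in exposed females. Without the 4 control arrays Cst3 turned to −0.31 and Cstb was −0.25, and neither passed (adjusted p = 0.994 for both). Cstb also lost its call with scaling to the 75th percentile (adjusted p = 0.729), and it turned to 0.10 with intensities over the array median. In exposed males Ctsc was the 1 of these 14 genes called, beside 6.23% of all probes called higher.

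Across rats, with each group's mean taken out, Klrd1 and Ctsw did not rise together. Pearson's r was −0.33 over 46 rats (permutation within groups, two-sided p = 0.054, adjusted p = 0.189 over 21 relations) and Spearman's rho was −0.31 (p = 0.0514, adjusted p = 0.202). Without the 2 rats farthest from the Klrd1 median r was −0.25, and without the 4 female controls it was −0.26. Within single groups r was 0.22 in extreme response, −0.33 in minimal response and −0.51 in control females. In males it was −0.27 in extreme response, −0.25 in minimal response and −0.64 in control rats. None passed an exact permutation test, and the lowest p was 0.083 in control males (adjusted p = 0.498).

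**Figure D5:**
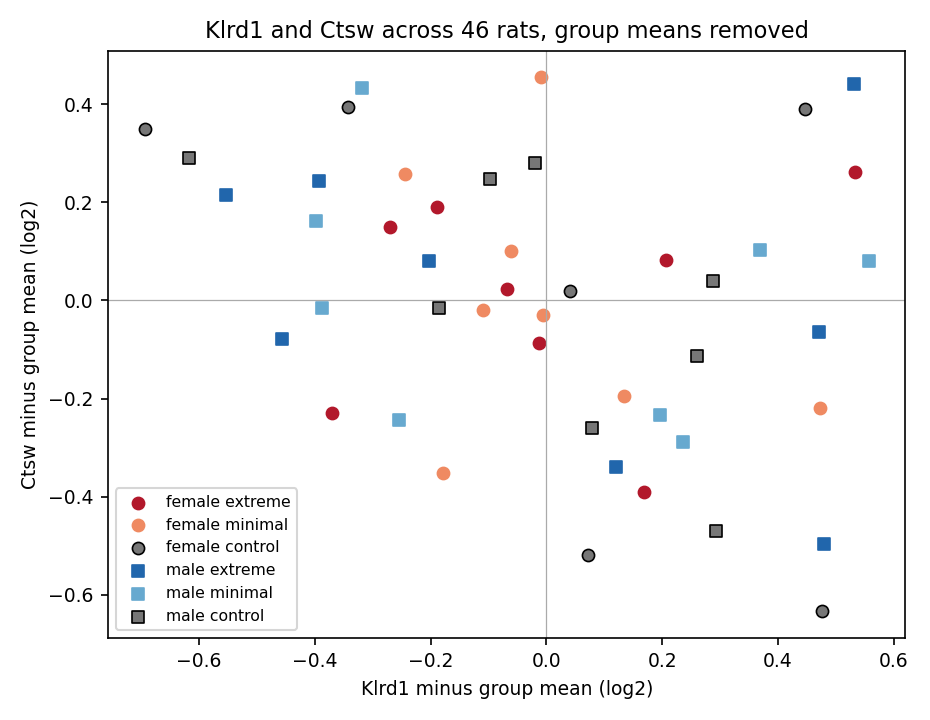
Klrd1 (horizontal axis) and Ctsw (vertical axis) in each of 46 rats, in log2 units after the mean of the rat's own group was subtracted, with circles for females, squares for males and black edges for controls. The points scatter widely around both zero lines, with r = −0.33.

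Neither gene followed the score of the other NK and cytotoxic markers across rats. The r with that score, built on 12 tested genes without the pair, was −0.05 for Klrd1 (p = 0.781, adjusted p = 0.781) and 0.18 for Ctsw (p = 0.256, adjusted p = 0.413), with rho of −0.04 and 0.06. Without the 2 farthest rats r was −0.05 and 0.19. No shared profile of the pair with these markers was detectable on these arrays, where the Klrd1 probe lay near background and was not detected on every array. The markers themselves gave 0 calls of 12 in limma in all 8 comparisons, with 1 at an unadjusted p below 0.05 in exposed females and 0 in exposed males, beside the 19.1% and 25.3% of all probes given above.

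Against the platelet score Klrd1 had r = −0.47 (p = 0.00338, adjusted p = 0.071) and rho = −0.47 (adjusted p = 0.0275), while Ctsw had r = 0.50 (p = 0.0168, adjusted p = 0.088) and rho = 0.52 (adjusted p = 0.0275), in permutations within groups over 46 rats. Both relations passed by rank and missed the threshold by Pearson's r after adjustment. Without the 2 rats farthest from the median of each gene, r was −0.39 for Klrd1 and 0.40 for Ctsw. Without the 4 female controls, r was −0.45 and 0.40. Against the T cell score, Ctsw had r = 0.41 (p = 0.0133, adjusted p = 0.088) and Klrd1 r = 0.12 (p = 0.481, adjusted p = 0.631). Ctsw also had rho = 0.43 with the score of eosinophil, basophil and mast cell markers (adjusted p = 0.0276; r = 0.39, adjusted p = 0.0733; r = 0.39 without the 2 farthest rats). The remaining relations did not pass by either measure.

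The 10 tested genes most like Klrd1 across 46 rats, by Pearson's r of group-centred values, were Psmb1 (0.61), Zfp655 (0.57), Rpl4 (0.57), Tomm20 (0.56), Esco1 (0.54), Cd69 (0.54), Nrip1 (0.53), Zpbp2 (0.52), Ofd1 (0.50) and Smad4 (0.49). Psmb1 encodes a proteasome subunit, Rpl4 a ribosomal protein, and Cd69 an early activation mark of lymphocytes. None of the 10 was on a list used here. The 10 most like Ctsw were Lat (0.73), Ptpn7 (0.72), Klhl36 (0.72), Exosc4 (0.71), Arhgap45 (0.70), Etf1 (0.70), Yars1 (0.69), Snx17 (0.69), B4galnt1 (0.68) and Phgdh (0.68). Lat encodes the adaptor that links the T cell receptor to downstream signals, and Ptpn7 a phosphatase of blood cells. These r values were chosen as the highest of 6672 and are a description over arrays that share their normalization.

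By list, Ctsw had a positive r with 15 of 17 adaptor and kinase genes (median 0.37) and with 12 of 14 T cell markers (median 0.24), beside 54.1% of all genes (median 0.03). Zap70, the T cell receptor kinase gene, had r = 0.62 with Ctsw, and Lck, another, 0.43. With 10 killer cell receptor genes the median r of Ctsw was 0.04, and with 13 granule genes 0.08. Klrd1 had a positive r with 5 of 10 killer cell receptor genes (median 0.01) and with 4 of 13 granule genes (median −0.06). With the adaptor and kinase genes it was positive for 5 of 17 (median −0.09). The share over all genes was 49.7% (median −0.001). Among the receptor genes its r ran from −0.47 with Klrb1b, another of the NKR-P1 family, to 0.25 with Klre1, and it was −0.004 with Klrk1. Among the granule genes the r of Klrd1 ran from −0.33 with Unc13d to 0.35 with Gzma, another granzyme gene, and it was 0.27 with Prf1. With 10 of 14 T cell markers Klrd1 had a positive r (median 0.07).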

How the data were processed

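The members and gene lists were chosen with earlier results of these data known. The authors deposited 1 non-normalized intensity and 1 detection p-value per probe and array, per the file headers, and a table of log2 values that was rebuilt here to within 5e-09 by quantile normalization of the log2 of the raw intensities. Per the labels' protocols, RNA came from PAXgene tubes, globin transcripts were depleted and biotinylated cRNA was hybridised. The scanner software is not given in the sources used here.

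Intensities of 46 arrays were background corrected with normexp (limma 3.58.1 in R 4.3.3, negative controls inferred from detection p, offset 16), quantile normalized and log2 transformed. Probes detected (p below 0.05) on at least 7 arrays were tested, 9416 in all. A group-means model with 40 residual degrees of freedom was fitted with lmFit and eBayes, and p-values were two-sided and adjusted by Benjamini-Hochberg over all tested probes. Differences of dim probes are made smaller by a larger offset. Background correction with the offset of 16 still gave a larger Klrd1 difference than no correction. For exposed minus control females it was −0.94 with that offset, −0.59 with an offset of 50 and −0.38 in the deposited log2 values. The number of arrays limits the precision. Symbols came from the platform annotation (13793 probes with 1, 8730 with none), and 13752 were matched to RefSeq by Entrez identifier. A symbol with several tested probes took the brightest.

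Correlations used values centred on their group means and 100000 permutations within groups. Named genes were the pair, the 10 genes most like each, up to 4 called genes per pathway list and direction, and Prf1, Gzmb, Nkg7, Klrk1, Klrc1 and Tbx21. Klre1, Klrb1a, Cd96, Cd226, Klrc2, Klrc3, Ncr1, Klrg1, Klrb1b, Gzma, Zap70 and Lck were added after their values were seen. Each array was taken as its own rat. Some rat numbers in the sample titles recur between the male groups, and the labels do not say whether these are the same rats. The model was tested on simulated data. Alternatives were other scalings, offsets, filters, arrays, covariates and a replicate block.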

Additional observations from a re-analysis of the deposited data

Results flagged for a closer look

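Over 46 arrays the female minus male difference of the exposure effect was −1.21 ± 0.23 for Klrd1 and 0.60 ± 0.19 for Ctsw (log2, SE). Female and male are the labels of the rats. Klrd1 was lower in exposed than in control females (−0.94) and 0.27 higher in exposed than in control males, and Ctsw was 0.47 higher in exposed females and differed by −0.13 in exposed males. Without female control replicates 1, 3, 4 and 5 the female minus male difference was −0.69 ± 0.29 for Klrd1 and 0.23 ± 0.23 for Ctsw. The Ctsw value was then within its error, so a difference between the sexes is not shown for Ctsw. As both genes were chosen on these data, no p is attached. Sex cannot be told apart from other differences between these sets of rats, which were numbered separately.

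Among all 50 tested genes of the 4 cytotoxic lists, the same difference passed in limma for 5 as higher and 3 as lower, beside 5.79% of all probes higher and 5.6% lower. It was −1.94 for Id2 (adjusted p = 5.36e-05), −1.13 for Ets1 (adjusted p = 0.00792), −0.73 for Rab27a (adjusted p = 0.0304), 0.87 for Unc13d (adjusted p = 0.00249), 0.85 for Prkcq (adjusted p = 0.00259), 0.72 for Nfil3 (adjusted p = 0.00795), 0.69 for Fcer1g (adjusted p = 0.0159) and 0.62 for Sh2d2a (adjusted p = 0.0444). Without female control replicates 1, 3, 4 and 5, 0 of 50 passed in limma, beside 0% of all probes, and 3 of 50 had an unadjusted p below 0.05, beside 10% of all probes. The 8 values were then −1.25 for Id2, −0.83 for Ets1, −0.47 for Rab27a, 0.48 for Unc13d, 0.11 for Prkcq, 0.37 for Nfil3, −0.03 for Fcer1g and 0.39 for Sh2d2a. No single rat stood apart from its group by Dixon's ratio in Klrd1 or Ctsw. This ratio looks at 1 extreme value per group, so it cannot flag arrays that deviate together, such as the 4 female controls.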

How the results depend on the processing

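Values are log2 differences from control unless stated, and N is the number of genes called on the 4 cytotoxic lists. The main N was 7, 5 and 6 in exposed, extreme and minimal response females, 7, 0 and 8 in males, and 0 for extreme minus minimal response in either sex. With scaling to the 75th percentile, Ctsw was 0.86 in exposed and 0.89 in minimal response females, Cstb 0.00073 in minimal response females, and N was 2 in extreme response females and in exposed and minimal response males. In the deposited log2 values Klrd1 was −0.38, −0.42 and −0.34 in exposed, extreme and minimal response females, and N for extreme minus minimal response females was 1. With an offset of 50, Klrd1 was −0.65 in extreme response females and that N was also 1. N in extreme response females was 3 with no detection filter, with array weights and with each sex fitted by itself. Array weights gave N of 11 in exposed and 2 in extreme response males. Brightness as a covariate gave N of 3 in minimal response females.

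With all 47 arrays, Ctsw was 1.10, 1.16 and 1.05 in exposed, extreme and minimal response females, Cstb 0.079, 0.061 and 0.10, and N was 0 in exposed and 2 in minimal response males. Without the 4 female control arrays, Klrd1 was −0.42, −0.53 and −0.30, Ctsw 0.10, 0.15 and 0.044, Cst3 −0.31, −0.52 and −0.10, and N was 0 in exposed, extreme and minimal response females. Fcer1g was −0.16 in exposed and −0.0059 in minimal response females there, and Stx11 −0.044 in extreme response females. With cell marker scores as covariates, Klrd1 was −0.38, −0.56 and −0.19, Ctsw −0.054, 0.0015 and −0.11, Cst3 −0.31, −0.42 and −0.21, Stx11 −0.070 in extreme response females, and N was 0 in each female comparison with controls and 2 in exposed and minimal response males.

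The raw scales were added after the data were seen. Raw log2 intensities gave Klrd1 −0.032, −0.13 and 0.062, Ctsw 1.04, 0.92 and 1.16 (−0.24 for extreme minus minimal response), Cstb 0.23, 0.065 and 0.40, Id2 0.036 in minimal response females, and N of 3 in exposed and 0 in extreme response females and in exposed and minimal response males. Intensities over the array median gave Klrd1 −0.16, −0.24 and −0.087, Ctsw 0.91 and 1.01 in exposed and minimal response females (−0.20 for extreme minus minimal response), Cstb 0.10 and 0.25 in exposed and minimal response females, and N of 1 in extreme and 10 in minimal response females and 0 in exposed and minimal response males. The causes were not tested.

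Leaving out 1 array at a time, Klrd1 in exposed females ran from −1.07 to −0.84 and Ctsw from 0.34 to 0.55. N in extreme response females ran from 2 (without female control replicate 3) to 6, N for extreme minus minimal response females from 0 to 1, N in extreme response males from 0 to 4 (without male extreme replicate 8) and N for extreme minus minimal response males from 0 to 1. The replicate block gave −0.96 for Klrd1 and 0.44 for Ctsw in exposed females. Arrays of the same replicate number did not deviate together (25 of 110 pairs over 0.1, correlations −0.53 to 0.40). These numbers follow the order of the samples within each group, so they cannot show whether rats were paired. Rat numbers that recur in the sample titles were not compared. Another probe of the pair could not be tried, since each gene has 1. The dim Klrd1 probe was detected on 4 of 8 control arrays of males, so its signal over background limits the values there.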
